A study of Mus musculus with 18 samples.

Results

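Gpm6a, Gfra3, Thbs1, Adamts16, Phldb2 and Zbtb38 are 6 of the 43346 genes measured in sorted Lgr5+ crypt cells of the mouse intestine. Gpm6a, Gfra3 and Thbs1 were picked because they were higher in the large intestine (LI) than in the small intestine (SI). Adamts16, Phldb2 and Zbtb38 were picked because they fell from LI cells with high to LI cells with low GFP. Both choices used the measured values, so the contrast that chose a gene is given for it as a description with no test. The level contrasts of Gpm6a and Gfra3, which rest on the same libraries that set these genes apart between the sites, are descriptions too. All 6 genes had a mean count above 0 and were among the 26717 genes tested.

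RNA was sequenced from 18 libraries in 6 groups of 3. Cells were sorted from dissociated crypts for EPCAM and for the GFP of untreated C57BL/6 mice of genotype Lgr5_eGFP_Iris_creERT2, aged 8 to 20 weeks, so every group carried the same allele and no group was treated. High, medium and low GFP stand for cells at the crypt centre, at its border and in rows above the third (row >3), in SI and in LI alike. The levels are therefore gates on a reporter driven from the Lgr5 gene, not positions read in tissue, and the labels do not say which mouse or how many mice gave a library. The methods of the study call the replicates biological. Counts of Ddx3y and of Eif2s3y, which lie on the Y chromosome, were 542 to 1419 in the 6 libraries of replicate 2 and at most 1 in all others, so in both sites replicate 2 held cells of male mice that replicates 1 and 3 did not, and sex and replicate number cannot be told apart.

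The Lgr5 levels of the 3 gates lay apart in LI, and in SI but for 1 border library. Its level was 120 to 255 CPM (counts scaled to the library total) in SI centre, 7.84 to 98.1 in SI border and 1.40 to 13.5 in SI row >3 libraries, against 112 to 127, 61.4 to 82.7 and 6.70 to 24.03 CPM in LI. The library labelled SI border replicate 3 had 7.84 CPM of Lgr5 against 8.24 and 13.5 CPM in SI row >3 replicates 1 and 2, and its 5 stem cell markers summed to 561 CPM against 730 and 770 CPM in those. Within replicate 3 it followed its gate, since SI row >3 replicate 3 had 1.40 CPM of Lgr5 and a marker sum of 428 CPM. Library totals ran from 8312093 counts (SI border replicate 1) to 31940965 counts (SI row >3 replicate 1). The SI libraries of replicate 3 stood apart. Genes with at least 20 CPM in every LI library of a level and an LI mean at least 20 times the level in SI replicate 1 numbered 51 for centre cells, 45 for border cells and 33 for row >3 cells. They stood at a median of 1.15% to 1.75% of their LI level in SI replicate 2 and of 60.7%, 84.9% and 79.3% in SI replicate 3. Values without these libraries are given beside several of the results on the members that they change. The 7 neuronal and glial markers summed to at most 0.826 CPM and stromal and endothelial markers to at most 10.3 CPM in any library, the 5 immune markers to 3.80 to 32.3 CPM in SI and 7.15 to 19.1 CPM in LI libraries, while the 4 epithelial markers summed to at least 2408 CPM.

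The intestinal epithelium is renewed from Lgr5+ stem cells at the crypt base, where Wnt signals maintain them. Cells pushed up the crypt lose Lgr5 and take on absorptive or secretory fates, and colonic crypts lack Paneth cells. The 6 genes belong to different machineries. Gpm6a encodes a membrane glycoprotein of the proteolipid family, best known from neurons, and Gfra3 the GPI-anchored co-receptor that binds artemin and signals through the receptor tyrosine kinase RET. Thbs1 encodes thrombospondin 1, a secreted matrix glycoprotein that can activate latent TGF-beta and binds the receptors CD36 and CD47. Adamts16 encodes a secreted metalloprotease with thrombospondin repeats. Phldb2 encodes LL5-beta, which anchors microtubule-capturing complexes at the basal cell cortex, and Zbtb38 a zinc finger protein that binds methylated DNA.

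In the GRCm38 annotation (GENCODE M21), Gpm6a lies on the plus strand at chr8:54954843-55060871, Gfra3 on the minus strand at chr18:34689898-34720387 and Thbs1 on the plus strand at chr2:118111876-118127133. Adamts16 lies at chr13:70727802-70841811, Phldb2 at chr16:45746243-45953598 and Zbtb38 at chr9:96682770-96752831, all on the minus strand. The reads were counted over exons of the gene as a whole, so transcripts of a gene are not told apart. Thbs1 shares 208 exon bases with a lincRNA on the other strand, Gm29233. No exon of another annotated gene overlapped those of the other members.

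Windows upstream of RefSeq start sites (GRCm38.p6) were at hand for 3 members. They are shown because Phldb2 and Zbtb38 moved together with Lgr5, a target of Wnt signals, while Gpm6a did not follow the SI gates. The letters searched were CTTTGA, the core bound by the TCF/LEF factors of the Wnt pathway, on both strands, and matches are in capitals. Of the 32841 windows of 250 bases in the RefSeq table, 13.8% hold at least 1 match. In sequences read 5′ to 3′ on the strand of the gene, the Phldb2 window (chr16:45844379-45844628, minus strand) holds none, and 1 of the 2 Gpm6a windows (chr8:54954478-54954727, plus strand) holds 1, which begins 198 bases before the start site. For Zbtb38, 1 of 3 windows holds 1 match, 29 bases before that start site. All 250 bases of that window lie in annotated exons, whose gene was not checked, so only the 30 bases around the match (chr9:96719457-96719486, minus strand) are shown:

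Phldb2: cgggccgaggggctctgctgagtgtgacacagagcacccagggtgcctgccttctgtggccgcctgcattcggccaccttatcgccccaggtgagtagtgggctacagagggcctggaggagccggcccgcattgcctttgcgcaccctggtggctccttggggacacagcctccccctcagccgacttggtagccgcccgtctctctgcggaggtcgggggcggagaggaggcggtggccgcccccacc

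Gpm6a: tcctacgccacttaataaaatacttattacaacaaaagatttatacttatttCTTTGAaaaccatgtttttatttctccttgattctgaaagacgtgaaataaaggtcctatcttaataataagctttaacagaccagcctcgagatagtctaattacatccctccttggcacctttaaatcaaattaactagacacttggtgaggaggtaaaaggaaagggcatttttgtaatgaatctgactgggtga

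Zbtb38: tgaaccggatgtTCAAAGgcagggccctgc

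The Phldb2 window is rich in CpG, with 16 CpG and 70.0% G or C, whereas the Gpm6a window shown has 3 CpG and 33.6% G or C. The other Gpm6a window has 1 CpG and 44.4% G or C. The 3 Zbtb38 windows have 6, 31 and 23 CpG and 40.4%, 74% and 69.6% G or C. The median window has 6 CpG and 52.4% G or C. A match is a run of letters and not a bound site, and its absence says only that these letters are not in this window.

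Per kilobase of exon, the 6 genes spanned a wide range of levels in LI centre cells. Mean levels were 45.5 CPM per kb for Thbs1 and 24.5 for Zbtb38, against 4.10 for Phldb2, 2.86 for Adamts16, 1.40 for Gfra3 and 1.23 for Gpm6a. Thbs1 and Zbtb38 therefore rest on at least 944 and 686 counts in every library, while Gpm6a and Gfra3 rest on at most 107 and 120 counts in any library. Below, levels are the deposited normalised counts, in which each library is divided by 1 size factor, listed for replicates 1, 2 and 3. Fold changes are log2 values from edgeR with their standard errors. In sorted cells as in bulk tissue, more cells expressing a gene and more RNA per cell cannot be told apart.

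Of the 3 LI genes, Gpm6a had the largest estimated log2 difference between the sites in centre cells. It stood at 126, 48.8 and 62.2 normalised counts in LI centre libraries and at 2.43, 0 and 0.933 in SI centre libraries, where its raw counts were 3, 0 and 1. LI border libraries had 48.6, 42.4 and 38.7 normalised counts of Gpm6a and SI border libraries 11.8, 1.30 and 26.3. In row >3 cells the values of Gpm6a were 0, 29.6 and 17 in LI and 2.05, 1.58 and 1.56 in SI. The 2 sites did not overlap in centre or border cells, as for 9.84% and 8.58% of all genes with LI higher, but they did in row >3 cells, where the LI replicate 1 library held no count. A count of 0 there allows up to 2.73 normalised counts of Gpm6a (3 counts, counting error only). As a description, the log2 fold change of LI over SI was 5.94 ± 0.88 (SE) at the centre, at the border it was 1.65 ± 0.67, and beyond row 3 it was 3.16 ± 1.05. The border difference became 3.10 without the SI replicate 3 libraries. SI border replicate 3 was the highest of the SI libraries and reached 60.2% of the LI mean.

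Within LI, Gpm6a descended from centre to border to row >3, with means of 78.9 ± 41.2, 43.2 ± 5.0 and 15.5 ± 14.9 normalised counts (SD, n = 3) and no overlap between neighbouring levels, a fall seen in 2.74% of all genes from centre to border and in 5.18% from border to row >3. Its libraries did not overlap between centre and row >3, as was the case in this direction for 7.07% of all genes. Given as a description, the log2 change of Gpm6a in LI was -0.83 ± 0.50 from centre to border and -2.23 ± 0.56 from centre to row >3. In SI the change from centre to border was 3.46 ± 1.25, opposite in sign to that in LI, and 1.85 without the SI replicate 3 libraries. It rests on few counts, since SI border libraries held 5, 1 and 25 raw counts of Gpm6a, and SI centre and row >3 libraries at most 3.

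Gfra3 was higher in LI in centre cells only, and the label of an LI-high gene does not describe its other levels. Its normalised counts were 70.6, 51.8 and 44.2 in LI centre and 0.810, 3.68 and 0.933 in SI centre libraries, from 1, 4 and 1 raw counts in SI. In border cells Gfra3 had 29.3, 41.2 and 32.0 in LI and 18.9, 48.0 and 18.9 in SI. In row >3 cells it had 48.3, 66.8 and 53.8 in LI and 52.7, 94.8 and 21.9 in SI. The sites were apart in centre cells and overlapped in the other levels. As a description, the LI level exceeded the SI level by 4.91 ± 0.73 on the log2 scale at the centre, while the border difference was 0.26 ± 0.52 and that of row >3 cells -0.01 ± 0.41. Ordered by mean, SI row >3 (56.4), LI row >3 (56.3) and LI centre (55.5) had overlapping libraries, followed by LI border (34.2) and SI border (28.6), whose libraries overlapped, and SI centre lay far below at 1.81 normalised counts.

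Along the SI levels the libraries of Gfra3 lay apart between centre and row >3, as for 12.8% of all genes with row >3 higher. The log2 difference of SI row >3 over SI centre was 4.98 ± 0.73, and 5.01 without the SI replicate 3 libraries. This difference is a description, since the same 3 SI centre libraries with almost no Gfra3 set it apart between the sites. SI border over centre gave 3.96 ± 0.85 and SI row >3 over border 1.02 ± 0.48. In LI, by contrast, the value of Gfra3 from centre to row >3 was 0.05 ± 0.42.

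The difference of these changes between the sites, LI minus SI, was -4.92 ± 0.88 for Gfra3, which is the site difference in row >3 cells less that in centre cells, and is a description as well. Markers of differentiated cells changed over the same SI gates. Of the 5 goblet markers, 4 rose from SI centre to row >3 (Tff3 by 3.99 on the log2 scale) and 1, Clca1, fell by 2.04, and the goblet sum was 609.7 to 9609 CPM in centre and 29452 to 47399 CPM in row >3 libraries. The enteroendocrine sum was 2.89 to 247 CPM in SI centre and 39.1 to 453 CPM in SI row >3 libraries, with none of its 5 markers called, and none of the 4 Paneth and 5 tuft markers was called. Of the 5 absorptive markers 3 rose, and their sum was 71.1 to 168 CPM in SI centre and 900.2 to 1225 CPM in SI row >3 libraries. Over all genes 13.2% were called in this contrast, 7.35% as higher. Without the SI replicate 3 libraries, where 9.97% were called as higher, 4 of the 5 tuft markers, 1 enteroendocrine marker (Neurod1) and 1 Paneth marker (Mmp7) were called higher as well. In LI, where the libraries of Gfra3 overlapped between centre and row >3, the goblet sum was 6201 to 9858 CPM in centre and 13910 to 22332 CPM in row >3 libraries and the absorptive sum 125 to 244 and 313 to 469 CPM. With all libraries none of these markers was called in LI, where 0.0187% of all genes were called lower and 0 genes higher. Without the SI replicate 3 libraries 1 goblet marker was called lower in LI. Nothing is read from this call, since the number of genes called in this contrast varied widely between alternatives. The part of these cells in the level of Gfra3 was not tested.

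**Figure D1:**
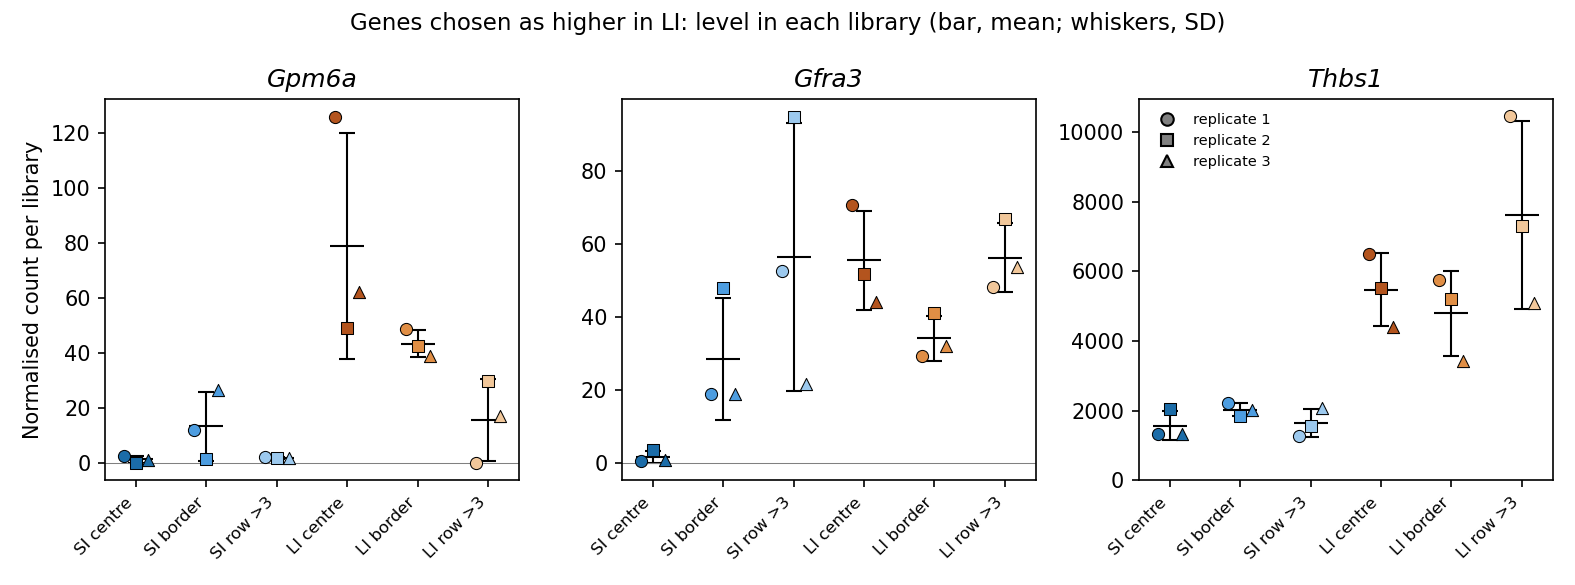
Normalised counts of Gpm6a, Gfra3 and Thbs1 (y axis, 1 linear scale per panel) in each of the 18 libraries by group (x axis). Each point is a library, the horizontal bar the mean and the whiskers the SD of 3 libraries. Gpm6a descends over the LI levels, Gfra3 is near 0 in SI centre libraries only, and every LI library exceeds every SI library for Thbs1.

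With all 18 libraries no other gene of the GDNF-family pathway was called in the direction of Gfra3. Of 10 listed receptors and ligands, 7 were tested. Between the sites over the 3 levels 14.6% of all genes were called, 7.68% as higher in LI, so few calls among so few genes are near that share. This average counts the 3 levels of a replicate as independent, so its SE and adjusted p may be too small. RET is the kinase that GFRA co-receptors need, and its gene was lower in LI over the 3 levels (-2.27 ± 0.52, adjusted p = 0.0054), the direction opposite to that of Gfra3. Ret had 0.05 to 1.22 CPM in LI libraries and 0.09 to 7.90 CPM in SI libraries, of which those of replicate 3 had 0.09 to 0.89 CPM. Artn, the gene of the ligand artemin, had means between 0.07 and 1.24 CPM over the 6 groups, and Nrtn, which encodes neurturin, between 1.71 and 4.92 CPM. Neither was called between sites or levels. Without the SI replicate 3 libraries, Ret was higher (1.42, adjusted p = 0.0217) and Nrtn lower (-2.16, adjusted p = 0.00953) in SI row >3 than in SI centre cells, and the site difference of Ret was -2.81. In that SI contrast without these libraries 9.97% of all genes were called higher and 7.09% lower. In the proteolipid family, Gpm6b was tested beside Gpm6a and was not called in any contrast. Enteric neurons and glia are known to express several of these genes, and the summed level of their 7 markers was 0.058 to 0.821 CPM in LI and 0 to 0.826 CPM in SI libraries.

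Thbs1 was abundant in every library and higher in LI at all levels. LI centre libraries had 6496, 5519.9 and 4395 normalised counts of Thbs1 and SI centre libraries 1329, 2048 and 1327. In border cells the values of Thbs1 were 5763, 5193 and 3428 in LI and 2229, 1839 and 2008 in SI. In row >3 cells Thbs1 had 10474, 7299 and 5097 in LI and 1279.6, 1550.3 and 2070.0 in SI. In row >3 cells 8.69% of all genes had every LI library above every SI library. The lowest of the 9 LI libraries lay, for Thbs1, above the highest of the 9 SI libraries, as in 0.588% of all genes, from which nothing is read since the sites chose the gene. As a description, the site difference on the log2 scale was 2.28 ± 0.26 in row >3 cells, 1.86 ± 0.25 at the centre and 1.30 ± 0.25 at the border. Thbs1 in SI replicate 3 stood at 23.6%, 41.6% and 26.6% of the LI mean in centre, border and row >3 libraries, against 16.1% to 43.4% in replicates 1 and 2.

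**Figure D2:**
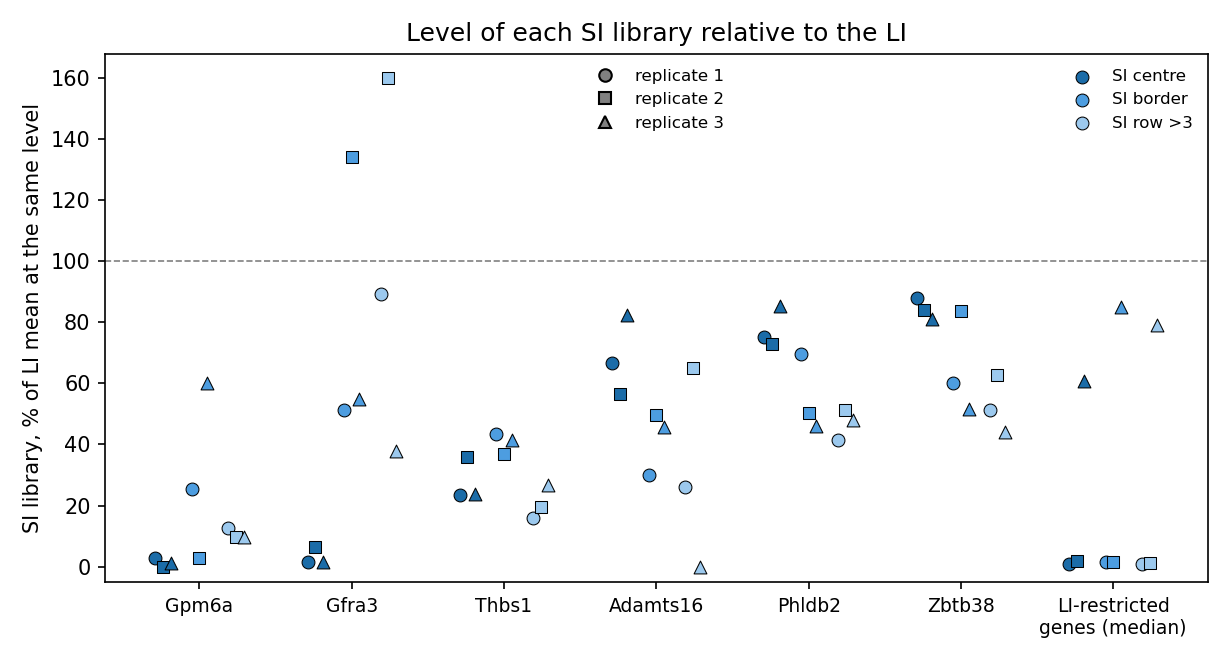
Level of each SI library as a percentage of the LI mean at the same crypt level (y axis; dashed line, 100%) for the 6 genes and, at the right, the median over genes restricted to LI (51 in centre, 45 in border, 33 in row >3). Symbols mark the replicate and shades the level. Replicate 3 reaches 60.7% to 84.9% for the LI-restricted genes, while for Thbs1 it stays at 23.6% to 41.6%.

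No contrast between levels passed the test for Thbs1. From SI centre to SI row >3 the change was 0.06 ± 0.25 on the log2 scale (adjusted p = 0.993), and from LI centre to LI row >3 it was 0.48 ± 0.25 (adjusted p = 0.746), with overlapping libraries in both. These contrasts were not used to choose Thbs1, although they share its libraries. Without the SI replicate 3 libraries and with the replicate block within site, an alternative added after the data were seen, the LI change from centre (0.43, adjusted p = 0.0389) and that from border (0.65, adjusted p = 0.0126) both passed, as did 3.74% and 0.905% of all genes with a rise. The change from centre to row >3, as a description, was higher in LI than in SI by 0.42 ± 0.35, and by 0.72 without the SI replicate 3 libraries. At each LI level the library of replicate 1 had the most Thbs1 and that of replicate 3 the least.

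The 3 genes closest to Thbs1 over the 18 libraries were immediate-early genes, which encode transcription factors and regulators that cells switch on within minutes of a stimulus. Of 14157 genes ranked by Pearson's r of log2 CPM, Nr4a1 (r = 0.952), Jun (0.933) and Ier2 (0.928) came first. Without the SI replicate 3 libraries they were Nr4a1 (0.975), Ceacam12 (0.962) and Prr5l (0.956). These correlations are a description over libraries that share the site difference. All 9 immediate-early genes listed were higher in LI over the 3 levels, by 1.13 (Ier2) to 2.00 (Nr4a1) on the log2 scale, with a median of 1.64 against 0.05 over all genes. In this contrast 14.6% of all genes were called, 7.68% as higher, and all 9 were also called without the SI replicate 3 libraries. The sum of the 9 genes was 2489 to 4573 CPM in LI and 675 to 1449 CPM in SI libraries. Per 100 CPM of that sum, Thbs1 amounted to 7.81 to 8.85 CPM in LI centre and 5.33 to 9.88 in SI centre libraries, and to 7.14 to 9.35 in LI border and 7.43 to 13.2 in SI border libraries, which overlap. In row >3 cells, where the site difference of Thbs1 was largest, the ratio was 9.77 to 11.5 in LI and 5.63 to 7.10 in SI libraries, fully apart. The ratio contains the site difference that chose Thbs1, so nothing is read from this lack of overlap. Whether the immediate-early genes have a part in the level of Thbs1 was not tested.

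**Figure D3:**
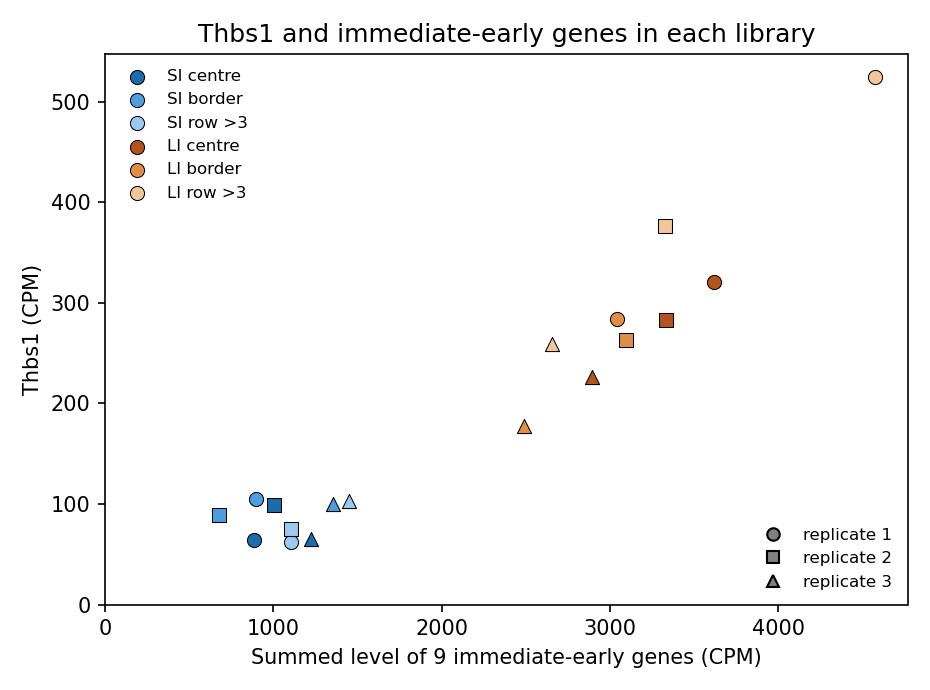
Thbs1 (y axis, CPM) against the summed level of 9 immediate-early genes (x axis, CPM), with 1 point per library, colours for the 6 groups and symbols for the replicate. The 9 LI libraries lie above and to the right of the 9 SI libraries in both measures.

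Of the genes of receptors and partners of thrombospondin 1, 2 of the 9 beside Thbs1, all tested, were called between the sites over the 3 levels, against 14.6% of all genes. Cd47 was lower in LI over the 3 levels (-0.76 ± 0.17, adjusted p = 0.0032). Tgfb1, the gene of TGF-beta 1, was higher (1.44 ± 0.34, adjusted p = 0.0053), at group means of 3.53 to 3.92 CPM in LI and 0.54 to 2.61 CPM in SI. Tgfb2 was called as lower only without the SI replicate 3 libraries (-1.30, adjusted p = 0.0205), where 22.2% of all genes were called. Cd36 had group means of at most 0.40 CPM, and the genes of the other thrombospondins, Thbs2, Thbs3, Thbs4 and Comp, of at most 1.40 CPM, with none called in any contrast.

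Adamts16, Phldb2 and Zbtb38 fell along the LI levels by the choice that made them members. The LI centre, border and row >3 values of Adamts16 were 641, 321 and 204, then 276, 177 and 119, then 10.02, 63.0 and 16.03 normalised counts. Those of Phldb2 were 827, 521 and 501, then 648, 437 and 396, then 118, 277 and 194. Those of Zbtb38 were 6283, 5535 and 5222, then 4986, 4384 and 4205, then 1856, 2946 and 2336. In all 3 genes centre and row >3 were fully apart, as for 7.07% of all genes in this direction, and border libraries overlapped centre libraries for Adamts16 and Phldb2 but not for Zbtb38, a lack of overlap found in 2.74% of all genes. As a description, the log2 change from LI centre to row >3 was -3.62 ± 0.56 for Adamts16, -1.63 ± 0.28 for Phldb2 and -1.25 ± 0.19 for Zbtb38, of which -1.02, -0.32 and -0.33 were already seen at the border. Over all genes, 0.0187% were called as lower in this contrast, and the number of calls fell from 5 to 0 in 11 of 18 omissions of 1 library, so the calls of this contrast are not used.

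The same 3 genes fell in SI, in libraries that had no part in their choice. Adamts16 had 268, 227 and 327 normalised counts in SI centre, 61.4, 98.5 and 87.3 in SI border and 8.21, 20.5 and 0 in SI row >3 libraries. The 3 levels did not overlap, and the 0 in SI row >3 replicate 3 allows up to 4.68 normalised counts. Phldb2 had 481, 468 and 539 in SI centre, 368, 259 and 228 in border and 85.5, 107 and 96.8 in row >3 libraries, again with no overlap. Zbtb38 had 5211, 4972 and 4741 in SI centre, 2921, 3952 and 2357 in border and 1282, 1576 and 1071 in row >3 libraries, likewise apart. Non-overlapping libraries in this direction were found for 12.3% of all genes between SI centre and row >3, 4.9% between centre and border and 5.24% between border and row >3, so lack of overlap alone does not single these genes out.

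From SI centre to SI row >3, Adamts16 fell by 4.63 ± 0.66 on the log2 scale (adjusted p = 1.54e-04), Phldb2 by 2.36 ± 0.30 (adjusted p = 4.14e-05) and Zbtb38 by 1.92 ± 0.19 (adjusted p = 1.05e-05). In this contrast 5.82% of all genes were called as lower, and all 3 members were, in edgeR and in each of 29 alternatives. Without the SI replicate 3 libraries the falls were -4.13, -2.30 and -1.83. On the log2 scale the larger share of the estimated fall came after the border. In normalised counts the means went from 274 to 82.4 to 9.58 for Adamts16, from 496 to 285 to 96.3 for Phldb2 and from 4975 to 3077 to 1310 for Zbtb38. With all libraries the larger drop of these means came before the border. Without the SI replicate 3 libraries it came after the border for Phldb2 and Zbtb38. From SI border to row >3 the changes were -2.92 ± 0.72 for Adamts16 (adjusted p = 0.0452), -1.53 ± 0.30 for Phldb2 (adjusted p = 0.0142) and -1.22 ± 0.19 for Zbtb38 (adjusted p = 0.00562), in a contrast with 0.764% of genes called as lower. The call for Adamts16 was lost in 16 of 29 alternatives, the highest adjusted p being 0.276 without SI row >3 replicate 1, and the value without the SI replicate 3 libraries -2.54 (adjusted p = 0.154). Those for Phldb2 and Zbtb38 were lost in 4 and 3 alternatives. Both were lost without SI row >3 replicate 1, without SI border replicate 2 and in a fit of these groups alone, and that for Phldb2 also without SI border replicate 1.

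From SI centre to SI border, Adamts16 changed by -1.70 ± 0.53 (adjusted p = 0.298), Phldb2 by -0.83 ± 0.28 (adjusted p = 0.336) and Zbtb38 by -0.70 ± 0.18 (adjusted p = 0.196). With the replicate block within site, Adamts16 (-1.71, adjusted p = 0.0251) and Zbtb38 (-0.73, adjusted p = 0.0119) passed and Phldb2 (-0.86, adjusted p = 0.0969) did not, and Zbtb38 also passed without SI border replicate 2 (-0.93, adjusted p = 0.0273). With that block 0.767% of all genes were called lower in this contrast, and without it 0.0112% were called in either direction. Stem cell markers fell over the same gates: 4 of 5 (Lgr5, Ascl2, Axin2 and Slc12a2) were called lower in SI row >3 than in SI centre, Lgr5 by 4.58 ± 0.87 (adjusted p = 0.00399), and the fifth, Smoc2, also was without the SI replicate 3 libraries (-2.34, adjusted p = 2.37e-07), where 7.09% of all genes were called lower. On the log2 scale the fall of Adamts16 was thus of the size of that of Lgr5, on which the cells were sorted, while Phldb2 and Zbtb38 fell less.

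**Figure D4:**
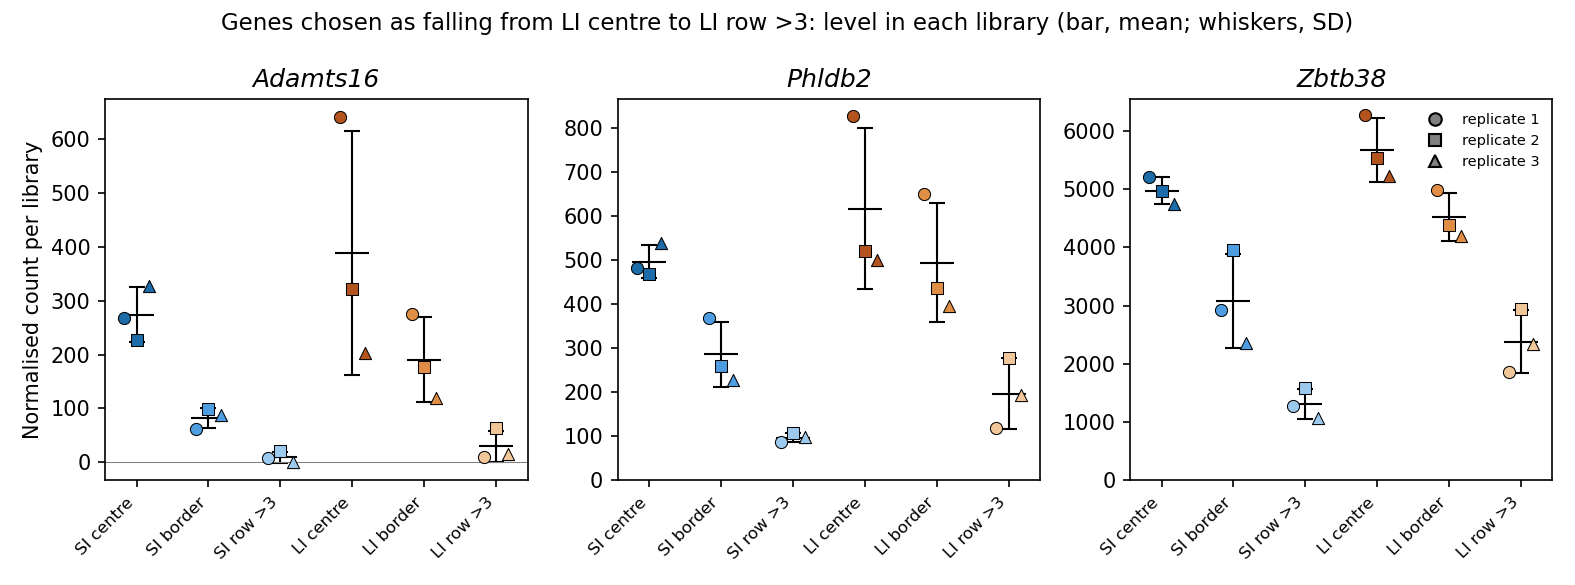
Normalised counts of Adamts16, Phldb2 and Zbtb38 (y axis, 1 linear scale per panel) in each of the 18 libraries by group (x axis), with the mean as a bar and the SD of 3 libraries as whiskers. In both sites all centre libraries lie above all row >3 libraries for each of the 3 genes.

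**Figure D5:**
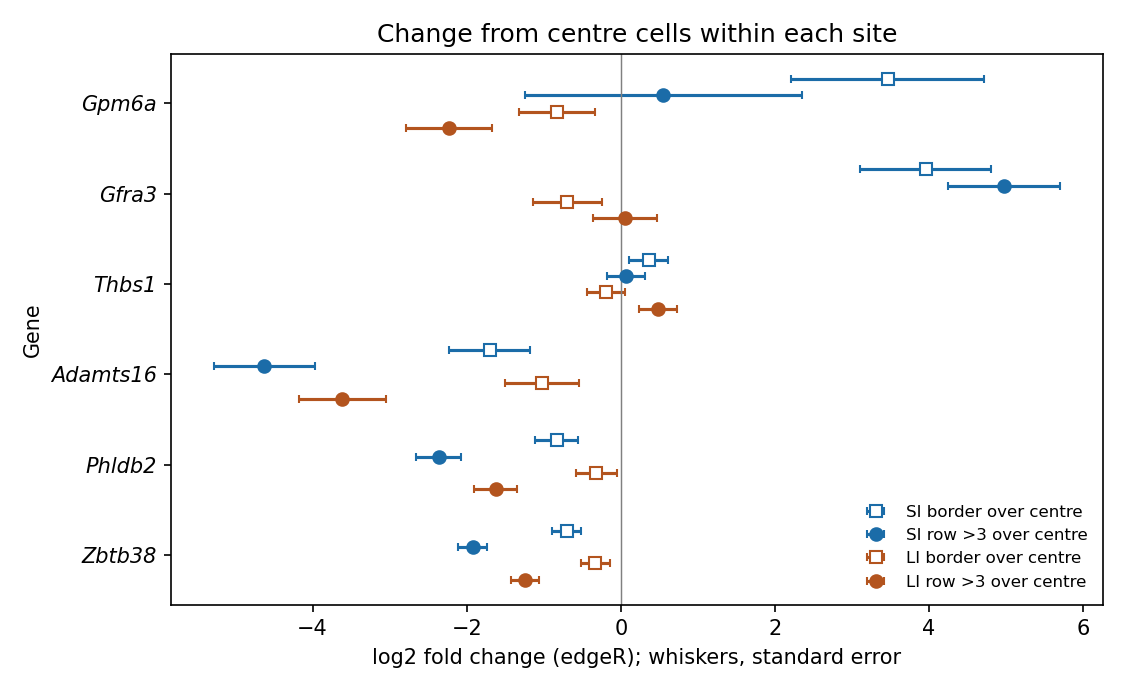
Log2 fold changes (x axis; whiskers, SE) from centre to border (open squares) and from centre to row >3 (filled circles) for the 6 genes (y axis), in SI (blue) and LI (orange). Adamts16, Phldb2 and Zbtb38 are below 0 in all 4 contrasts, and Gfra3 is at 4.98 in SI and 0.05 in LI for row >3 over centre.

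Averaged over the 3 levels, Phldb2 and Zbtb38 were higher in LI than in SI, while the border contrast did not pass. Of all genes, 14.6% were called in this average, 7.68% as higher in LI. The fit counted libraries of the same replicate number within a site as independent, although they deviated together. The SE and adjusted p of this average may therefore be too small. On average the site difference was 0.78 ± 0.16 for Phldb2 (adjusted p = 0.00223) and 0.60 ± 0.11 for Zbtb38 (adjusted p = 5.34e-04), and it was called in all 26 alternatives for both. For Adamts16 it was 1.10 ± 0.35 (adjusted p = 0.0388), and the call was lost in 15 of 26 alternatives, among them without the SI replicate 3 libraries (1.002, adjusted p = 0.101) and without LI row >3 replicate 2 (0.67, adjusted p = 0.241). This average does not contain the difference of LI centre and row >3 that chose the genes. It does include their libraries, so its calls are not independent of that choice. The border contrast includes neither: LI was above SI by 1.22 ± 0.53 for Adamts16 (adjusted p = 0.304), 0.87 ± 0.28 for Phldb2 (adjusted p = 0.123) and 0.62 ± 0.18 for Zbtb38 (adjusted p = 0.0923), in a contrast with 1.75% of genes called. None of the 3 passed there, although in each every LI border library lay above every SI border library, as for 8.58% of all genes in this direction. Zbtb38 passed there with the replicate block over all libraries (0.64, adjusted p = 0.0239), where 4.27% of all genes were called, and without SI border replicate 2 (0.84, adjusted p = 0.0304).

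With all libraries the site difference in each of these genes was smallest in centre cells and largest in row >3 cells. The ratio of LI to SI mean normalised counts was 1.42, 2.32 and 3.10 for Adamts16 in centre, border and row >3, 1.24, 1.73 and 2.04 for Phldb2 and 1.14, 1.47 and 1.82 for Zbtb38. The row >3 ratio of Adamts16 rested on LI row >3 replicate 2 (63.0 normalised counts against 10.02 and 16.03 in replicates 1 and 3). Without that library it was no longer the largest of the 3 ratios of Adamts16. As a description, the change from centre to row >3 was weaker in LI than in SI by 1.01 ± 0.90, 0.74 ± 0.40 and 0.68 ± 0.26 on the log2 scale. For Adamts16 this value rested on the single library LI row >3 replicate 2, without which it was -0.23. Without the SI replicate 3 libraries the value for Adamts16 was 0.54 ± 1.07. The 5 stem cell markers, Lgr5 among them, also fell less in LI by their median, which was 1.12 for this difference between the sites. Their median LI over SI value was 0.72 beyond row 3 and -0.69 at the centre, and no marker was called in these contrasts. Whether the 3 genes differ between the sites apart from these markers was not tested. Ordered by mean, each gene ran LI centre, SI centre, LI border, SI border, LI row >3 and SI row >3. SI centre and LI border overlapped in all 3 genes, as did SI border and LI row >3.

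The 3 genes followed each other and Lgr5 closely. Over the 18 libraries Pearson's r of log2 CPM was 0.955 between Adamts16 and Zbtb38, 0.936 between Adamts16 and Phldb2 and 0.964 between Phldb2 and Zbtb38, and that with Lgr5 was 0.905, 0.866 and 0.918 for Adamts16, Phldb2 and Zbtb38. These values share the gates of the sort and are given as a description. The nearest genes to Adamts16 beside Zbtb38 were Dennd2c (0.945), whose product activates Rab GTPases, and Znrf3 (0.945), a Wnt target that removes Wnt receptors from the cell surface. Without the SI replicate 3 libraries its nearest 3 were Nid2 (0.965), Zbtb38 and Phldb2. For Phldb2 they were Dennd2c (0.966), Zbtb38 and Htr4 (0.950), a serotonin receptor. For Zbtb38 they were Aqp1 (0.974), a water channel, Ephb3 (0.974), an Eph receptor, and Phldb2, and for both genes the same 3 remained without the SI replicate 3 libraries. Among the genes picked as higher in LI, r was 0.428 between Gpm6a and Gfra3, 0.578 between Gpm6a and Thbs1 and 0.545 between Gfra3 and Thbs1. Gpm6a ran closest to Gpc6 (0.861), a glypican, Lancl3 (0.834) and Fut9 (0.824), a fucosyltransferase, with Slc9a9 (0.914) in place of Lancl3 without the SI replicate 3 libraries. Gfra3 ran closest to Pofut2 (0.896), which adds fucose to thrombospondin repeats, the Wnt receptor gene Fzd4 (0.886) and the proteasome gene Psmd13 (0.853), none of which stayed among its nearest 3 without the SI replicate 3 libraries (Rai2, 0.957, Kcnh3, 0.914, and Creb3l1, 0.905).

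Relatives of the 3 genes moved in both directions. Of all genes, 5.82% were called lower and 7.35% higher in SI row >3 than in SI centre. Among 19 ADAMTS protease genes tested, Adamts16 alone was called lower in SI row >3 than in SI centre. Adamts17 (2.15 ± 0.40, adjusted p = 0.0012) and Adamts12 (4.13 ± 1.21, adjusted p = 0.0214) rose, and the median of the 19 was 0.78 against 0.00 over all genes. A share of 1 in 19 is near the share over all genes. Between the sites Adamts15 (-2.28 ± 0.28, adjusted p = 8.18e-06) and Adamts9 (-2.70 ± 0.66, adjusted p = 0.00568) were lower in LI, the direction opposite to that of Adamts16. In this contrast, with 14.6% of all genes called, Kank1 (0.35, adjusted p = 0.0129) and Dag1 (0.34, adjusted p = 0.0053) of the platform around Phldb2 were higher in LI and Erc2 (-3.59, adjusted p = 0.00549) and Phldb3 (-0.60, adjusted p = 0.0373) lower, and Zbtb33 (0.49, adjusted p = 0.0249), a methyl-CpG binding relative of Zbtb38, was higher. Of the 13 genes of the cortical LL5 platform, Kank1, whose product links the platform to focal adhesions, fell with Phldb2 (-0.89 ± 0.16, adjusted p = 7.43e-04). Dag1, the gene of dystroglycan (0.60 ± 0.14, adjusted p = 0.00439), and Erc2 (3.17 ± 0.80, adjusted p = 0.00845) rose, and the other 9 were not called. Both values of Erc2 rest on low levels, at most 5 counts in any LI library and 0 to 2.10 CPM in SI libraries. Clasp2, a microtubule-binding partner of the platform, was called lower only without the SI replicate 3 libraries (-0.58, adjusted p = 0.0453). The paralogue Phldb1 had group means of 45.5, 77.3 and 92.9 CPM in SI centre, border and row >3, opposite in order to Phldb2, and was called as higher only without the SI replicate 3 libraries (1.05, adjusted p = 0.0197). Of the 9 methyl-CpG binding proteins, Uhrf1, which maintains DNA methylation in dividing cells (-1.32 ± 0.30, adjusted p = 0.00604), and the glycosylase gene Mbd4 (-1.22 ± 0.31, adjusted p = 0.0111) fell with Zbtb38 in SI, and none rose. The calls named here for SI row >3 over centre and between the sites were also made without the SI replicate 3 libraries, except that of Adamts16 between the sites.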

How the data were processed

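The authors sorted Lgr5+ cells, prepared stranded libraries and aligned and counted the reads on mm10. They deposited raw counts for each gene in each library, and a second table of normalised counts, a signal obtained by dividing each library by its DESeq2 size factor. Whether counting used strand is not given in the sources used here. Levels in the text are the deposited normalised counts, or CPM with TMM factors computed here.

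Differences were tested on the deposited counts with edgeR 4.0.16 in R 4.3.3 (TMM, genes with a mean count above 0, glmQLFit with its robust option, 1 fit of the 6 groups, 12 residual degrees of freedom) and called where the p adjusted by Benjamini-Hochberg over all 26717 genes was under 0.05. DESeq2 1.42.0, other filters and factors, replicate blocks and the omission of libraries were alternatives. Level contrasts of Gpm6a and Gfra3, and differences of level contrasts between the sites, were planned as tests and are given as descriptions, because they rest on the libraries or site contrasts that chose the genes. The members and gene lists were chosen with earlier results of these data known. Named are the members, the genes of the lists that passed or that serve a comparison, and the 3 genes nearest to each member among 14157 genes with at least 1 CPM in at least 3 libraries. A listed gene is not reported here and was left out of sums and counts over lists.

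Libraries of 1 site with the same replicate number deviated together (r = 0.195 to 0.627 in SI and 0.246 to 0.491 in LI), so in the alternatives with a replicate block within site the number was taken to pair libraries. The main fit had no replicate term, so its contrasts between levels do not use this pairing. For the same reason the SE and adjusted p of the averages over levels between the sites may be too small, for members and listed genes alike. Across sites r was -0.04 to 0.20, and the numbers were not taken to pair them. Precision at low counts is that of counting error: a count of 0 allows up to 3 counts. Figures were drawn with matplotlib 3.10.9.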

Additional observations from a re-analysis of the deposited data

How the results depend on the processing

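Of 304 values from alternatives for the 11 main results, 286 kept their side of the threshold, 15 lost a call and 3 gained one. No called result changed direction, while the uncalled change of Thbs1 from SI centre to row >3 (0.06) was below 0 in 6 of 29 alternatives, at the lowest -0.25 without the SI replicate 3 libraries. The change of Thbs1 from LI centre to row >3 gained a call without the SI replicate 3 libraries and with the block (0.43). The site difference of Adamts16 over the 3 levels lost its call with no filter (1.10), with RLE factors (1.05), without the SI replicate 3 libraries (1.002), in the legacy quasi-likelihood fit (1.13) and in 11 of 18 omissions of 1 library, which gave 0.67 to 1.42. The LI over SI difference of Zbtb38 in border cells gained one with the replicate block over all libraries (0.64) and without SI border replicate 2, the omissions giving 0.48 to 0.84. The block changed no other call of these 11 results. It was not used within site for contrasts between sites, and a fit of the groups compared alone was not run for the mean over levels, which uses all groups. The numbers of genes called moved more: from 3518 to between 1973 and 6201 for SI row >3 over centre, from 5 to between 0 and 1776 for LI row >3 over centre, from 429 to between 0 and 3284 for SI row >3 over border, from 468 to between 138 and 2121 for the sites in border cells, and from 0 to as many as 1997 for the difference between the sites. The cause was not tested. Depth limits Gpm6a and Gfra3 in SI centre cells, at 0 to 4 counts a library. The legacy fit and the joint omission with the block were added after the data were seen.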
